A study of Mus musculus with 6 samples.

Results

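The miR-99, miR-100 and miR-125 families were followed in the livers of MAFLD mice and control mice. The 9 mature miRNAs described here, out of 1546 in the deposited CPM values, were chosen by name and by no cutoff on their levels, though with earlier results of these data known: mmu-miR-99a-5p, mmu-miR-99b-5p, mmu-miR-99b-3p, mmu-miR-100-5p, mmu-miR-125a-5p, mmu-miR-125a-3p, mmu-miR-125b-5p, mmu-miR-125b-1-3p and mmu-miR-125b-2-3p. All 9 were listed. CPM (a depth-scaled read count) is the number of reads assigned to a miRNA, scaled so that all listed miRNAs of a library have the same total.

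The control group (NC) consisted of male C57BL/6 mice on a normal diet, and the MAFLD group of male C57BL/6 mice on a high-fat diet. Feeding began at 8 weeks of age and lasted 16 weeks, with 6 mice per diet, and small RNA from 3 livers of each group was sequenced. Both groups are of 1 wild-type strain with no transgene, and the livers were taken after a fast. The labels give liver as the tissue, but their growth and treatment protocols describe HepG2, a human liver cell line, and the tissue label was followed here. The sources used here describe no pooling and do not say which of the mice the libraries came from, so p-values measure the spread between these libraries.

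MicroRNAs are cut from hairpin precursors as a 5p and a 3p strand. As a rule 1 strand is kept and guides repression of messenger RNAs that pair with its seed, bases 2 to 8, while the other strand is mostly degraded. The miR-99/100 family is known for repressing the growth kinase mTOR, and miR-99a is known as an abundant miRNA of normal liver. MiR-125 is the vertebrate relative of lin-4, the founding miRNA of the worm, and together with let-7 it represses the RNA-binding protein Lin28. In mammals these genes lie beside let-7 genes in related clusters.

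The mature sequences are shown because the seeds sort the 5p strands into 2 families and because some members differ so little that reads may be assigned to either. They come from RefSeq on GRCm38.p6, where all 9 names matched, and are written 5′ to 3′ with the seed in capitals. MiR-351-5p is added as a miRNA outside the 9 with the miR-125 seed.
miR-99a-5p: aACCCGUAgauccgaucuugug
miR-100-5p: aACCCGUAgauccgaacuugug
miR-99b-5p: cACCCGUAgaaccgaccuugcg
miR-125b-5p: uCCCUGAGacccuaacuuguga
miR-125a-5p: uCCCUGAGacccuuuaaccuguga
miR-351-5p: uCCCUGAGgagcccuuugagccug
miR-99b-3p: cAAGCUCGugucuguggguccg
miR-125a-3p: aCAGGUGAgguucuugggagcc
miR-125b-1-3p: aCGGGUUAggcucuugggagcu
miR-125b-2-3p: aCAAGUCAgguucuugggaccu

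Counted from 1 at the 5′ end, miR-100-5p differed from miR-99a-5p by U16A alone, outside the seed. MiR-99b-5p differed from miR-99a-5p by A1C, U11A, U16C and U21C. MiR-125a-5p and miR-125b-5p shared their first 13 bases. MiR-351-5p shared the first 8 bases with both. No other listed miRNA carried the miR-99/100 seed. MiR-6367 also carried the miR-125 seed, and it had 2 reads in all 6 libraries together.

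On GRCm38 all genes of the 9 miRNAs lie on the plus strand in 3 clusters. On chromosome 17, Mir99b, Mirlet7e and Mir125a lie within Spaca6, with gaps of 94 and 367 bp. MiR-99b-5p is at chr17:17830194-17830215 and miR-125a-5p at chr17:17830817-17830840. Mir99b and Mirlet7e are intronic in Spaca6, while Mir125a overlaps an exon of at least 1 annotated Spaca6 transcript. Mirlet7e also lies opposite an exon of Gm25927. On chromosome 16, Mir99a, Mirlet7c-1 and Mir125b-2 lie in introns of the noncoding host gene Mir99ahg, with Mir99a 656 bp before Mirlet7c-1 and Mir125b-2 another 46522 bp on. Mir125b-2 also overlaps an exon of C130023A14Rik on the same strand. MiR-99a-5p is at chr16:77598940-77598961. On chromosome 9, Mir100, Mirlet7a-2 and Mir125b-1 lie in introns of the noncoding gene 3110039I08Rik. Mir100 also lies opposite an exon of Gm48742, and Mir125b-1 within an exon of Gm28119. MiR-100-5p is at chr9:41531437-41531458. MiR-125b-5p has the same sequence at chr9:41581940-41581961 and at chr16:77646279-77646300, so its reads cannot be told apart by locus, and the 3p strands alone separate the 2 genes.

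The libraries held between 1336935 and 4685712 reads on miRNAs, recovered from the CPM steps, so that a level of 3 reads lay between 0.640 and 2.24 CPM. MiR-148a-3p, the most abundant miRNA, took 71.4%, 63.3% and 48.5% of the reads in NC replicates 1 to 3 and 46.8%, 56.7% and 51.6% in MAFLD replicates 1 to 3, and the CPM of all other miRNAs depends in part on this share. NC replicate 3 stood apart from the other NC libraries in this share. It also had the highest sum of 5 epithelial markers (867 CPM, against 196 to 437 CPM in the others), whereas the sum of 7 neuronal markers was 469 and 758 CPM in NC replicates 1 and 2 and 50.4 to 71.7 CPM in NC replicate 3 and the MAFLD libraries. Most of the epithelial sum in NC replicate 3 was miR-200a-3p and miR-200b-3p (571 and 234 CPM), while miR-141-3p and miR-200c-3p were highest in MAFLD replicate 3. Most of the neuronal sum in NC replicates 1 and 2 was miR-9-5p (344 and 530 CPM). MiR-137-3p was highest in NC replicate 3 and miR-219a-5p in MAFLD replicate 1. The hepatocyte marker miR-122-5p made up 4.22% to 8.51% of the reads. In the 501 miRNAs tested, the median log2 fold change of MAFLD against NC livers was 0.43, and it was 0.043 when the libraries were scaled by their median ratio. The counts over the members are therefore also given without NC replicate 3.

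MiR-99a-5p dominated. It ranked 12 of 1546 by mean CPM and made up 75.4% to 84.1% of the reads of the 9 miRNAs in a library. The order of mean levels in CPM was miR-99a-5p (6485), miR-100-5p (1135), miR-99b-5p (218), miR-125b-5p (156), miR-125a-5p (55.7), miR-125b-2-3p (23.3), miR-99b-3p (14.7), miR-125b-1-3p (2.23) and miR-125a-3p (0.734). Each of these is 1 strand of 22 or 24 nt, so a read is a whole miRNA and no scaling by length was applied, although adapter ligation is known to favour some sequences. The order among the first 8 was the same in all 6 libraries. MiR-125b-1-3p was above miR-125a-3p in 5 of 6, with the same number of reads in MAFLD replicate 3. The 95% Wilson intervals of miR-125b-2-3p and miR-99b-3p were apart in 1 of 6 libraries, and those of the 2 scarcest were apart in 0, so these neighbours were not separated by the depth. Such intervals cover counting error only.

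**Figure D1:**
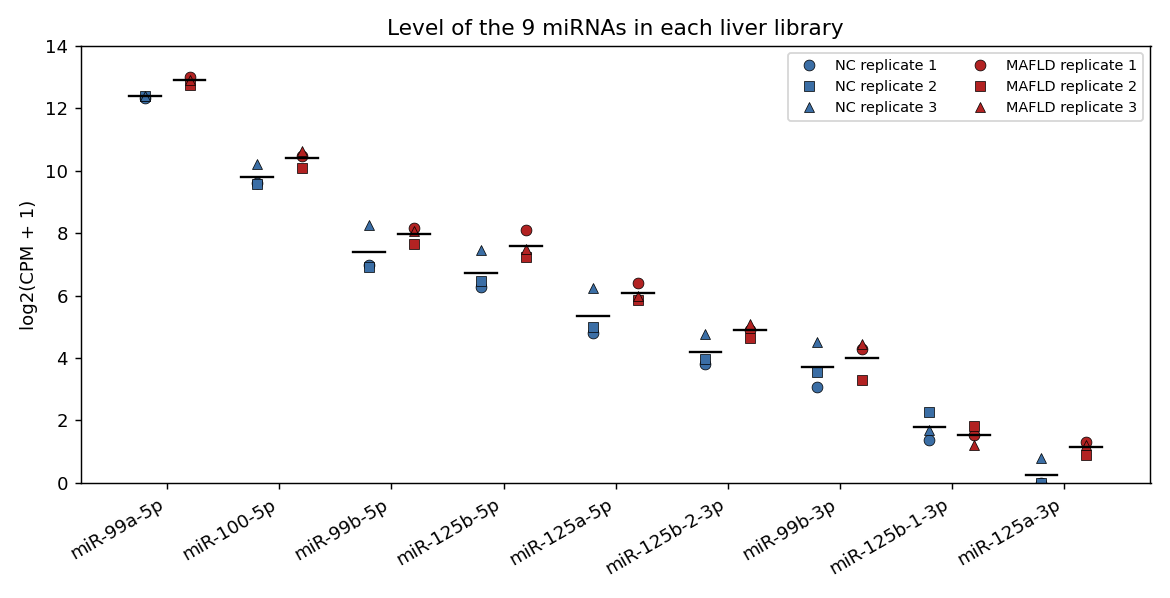
Level of each of the 9 miRNAs, in order of mean CPM, as log2(CPM + 1) in each of the 6 liver libraries, with NC in blue on the left of each name, MAFLD in red on the right, and a bar at the group mean. The groups are apart for miR-99a-5p and, at 0 to 4 reads, for miR-125a-3p, and NC replicate 3 (blue triangle) lies among or above the MAFLD libraries for several others.

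In the livers of MAFLD mice all 3 miRNAs with the miR-99/100 seed had a higher mean than in NC livers, with fitted folds of 1.43 to 1.51, and none passed the test. mmu-miR-99a-5p had 5104, 5446 and 5448 CPM in the NC group and 8254, 6920 and 7738 CPM in the MAFLD group. Every MAFLD library was above every NC library, and the NC libraries were close together. The mean was 5333 ± 198 CPM (SD, n = 3) against 7637 ± 672 CPM (SD, n = 3), and limma gave a log2 fold change of 0.52 with a standard error of 0.26 (adjusted p = 0.304, Benjamini-Hochberg). Relative to the median of all miRNAs tested this was 0.086, and DESeq2 on the recovered reads gave a log2 fold change of −0.0069. In whole liver, more cells of a type and more RNA per cell cannot be told apart. MiR-99a-5p was the only member tested whose groups did not overlap, 1 of 8, where 19.4% of all miRNAs tested did not overlap, 15.2% of all with MAFLD higher. By median-ratio scaling, miR-99a-5p overlapped and 1 other, miR-125b-2-3p, did not (20.8% of all, 11.6% with MAFLD higher). In CPM without miR-148a-3p, miR-125b-5p and miR-125b-2-3p did not overlap, 2 of 8, both higher in MAFLD livers (21.6% of all, 14.0% with MAFLD higher).

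mmu-miR-100-5p, from the chromosome 9 cluster, had 779, 765 and 1177 CPM in the NC group and 1417, 1081 and 1589 CPM in the MAFLD group. NC replicate 3 was above MAFLD replicate 2, so the groups overlapped. Limma gave a log2 fold change of 0.60 with a standard error of 0.33 (adjusted p = 0.332). mmu-miR-99b-5p, from the chromosome 17 cluster, had 126, 121 and 304 CPM in the NC group and 288, 202 and 267 CPM in the MAFLD group. NC replicate 3 was the highest of all 6 libraries here. Limma gave a log2 fold change of 0.58 with a standard error of 0.42 (adjusted p = 0.450).

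The miR-125 strands with the lin-4 type seed had larger mean differences and a wider spread. mmu-miR-125b-5p had 76.5, 86.7 and 174 CPM in the NC group and 272, 149 and 179 CPM in the MAFLD group. NC replicate 3 was between MAFLD replicates 2 and 3. The mean was 112 ± 53.8 CPM (SD, n = 3) against 200.2 ± 64.3 CPM (SD, n = 3). Limma gave a log2 fold change of 0.88 with a standard error of 0.42 (unadjusted p = 0.0561, adjusted p = 0.284), the largest among the 8 members tested, and 0.45 above the median of all miRNAs. mmu-miR-125a-5p had 26.7, 30.6 and 74.0 CPM in the NC group and 84.0, 56.98 and 61.9 CPM in the MAFLD group. NC replicate 3 was again above MAFLD replicates 2 and 3. Limma gave a log2 fold change of 0.75 with a standard error of 0.46 (adjusted p = 0.397).

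The 3p strands were scarce. mmu-miR-125b-2-3p, the strand that marks the chromosome 16 copy of miR-125b, had 12.9, 14.7 and 26.2 CPM in the NC group and 28.9, 24.1 and 33.2 CPM in the MAFLD group. NC replicate 3 was above MAFLD replicate 2. Limma gave a log2 fold change of 0.70 with a standard error of 0.46 (adjusted p = 0.411). mmu-miR-99b-3p had 7.45, 10.8 and 21.7 CPM in the NC group and 18.4, 8.75 and 20.9 CPM in the MAFLD group, with the highest value in NC replicate 3 and the groups interleaved. The log2 fold change by limma of 0.29, with a standard error of 0.53 (adjusted p = 0.800), became −0.14 with median-ratio scaling. MiR-125b-1-3p, which marks the chromosome 9 copy, was read 4, 6 and 3 times in NC livers and 5, 12 and 2 times in MAFLD livers, and was the only member tested with a negative log2 fold change (−0.26 with a standard error of 0.56 in limma, adjusted p = 0.830). That value was −0.0095 without NC replicate 2. MiR-125a-3p was read 0, 0 and 1 times in NC livers and 4, 4 and 2 times in MAFLD livers. Its mean was under 1 CPM, so it was not tested, and all NC libraries and MAFLD replicate 3 were under the 3 reads that the depth can show.

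Of the 8 members tested, 0 passed an adjusted p under 0.05 in limma, where 0.2% of all miRNAs tested did. An unadjusted p under 0.05 was reached by 0 of 8 members, where 18.0% of all miRNAs did. On the recovered reads both counts were also 0 with edgeR, where 0.2% and 17.4% of all miRNAs passed the adjusted and the unadjusted p, and with DESeq2, where 5.59% and 16.6% did. The log2 fold change was above 0 for 7 of 8 members, where 71.3% of all miRNAs tested were above 0, and the median of the members was 0.59 beside 0.43 for all. Relative to the median of all, miR-125b-5p was at 0.45, miR-125a-5p at 0.32, miR-125b-2-3p at 0.28, miR-100-5p at 0.17, miR-99b-5p at 0.15, miR-99a-5p at 0.086, miR-99b-3p at −0.14 and miR-125b-1-3p at −0.69.

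Of the fits in CPM that left out 1 library, the counts of members passing changed most without NC replicate 3. Without it, miR-125b-5p (log2 fold change 1.24, adjusted p = 0.0186 from limma), miR-99b-5p (1.01, adjusted p = 0.0239), miR-125a-5p (1.20, adjusted p = 0.0290) and miR-100-5p (0.80, adjusted p = 0.0312) passed, all higher in MAFLD livers. These were 4 of 8 members, where 22.8% of all miRNAs tested passed, 19.0% of all with MAFLD higher, and the median log2 fold change of all was 0.67. MiR-99a-5p, whose NC libraries hardly differed, was at 0.53 (adjusted p = 0.0588), which is 0.14 below that median. An unadjusted p under 0.05 was reached by 6 of 8 members without NC replicate 3, where 35.3% of all miRNAs reached it. The groups did not overlap for 6 of 8, all higher in MAFLD livers, where 52.9% of all miRNAs did not overlap, 43.9% of all with MAFLD higher. When NC replicate 3 was left out together with another scaling, 0 of 8 passed the adjusted p by median-ratio scaling, where 7.39% of all did, and 0 of 8 in CPM without miR-148a-3p, where 8.4% did. The unadjusted p was under 0.05 for 0 of 8 (24.0% of all) and for 2 of 8 (27.2% of all), miR-125a-5p and miR-125b-5p, and the groups did not overlap for 4 of 8 in either (41.9% and 44.8% of all). Of the NC libraries, replicate 3 had the lowest share of miR-148a-3p and the highest sum of epithelial markers. Its sum of neuronal markers, 57.6 CPM, lay inside the MAFLD range of 50.4 to 71.7 CPM. NC replicates 1 and 2, the only NC libraries left in these fits, had 469 and 758 CPM of neuronal markers. The part of these differences in the results was not tested.

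**Figure D2:**
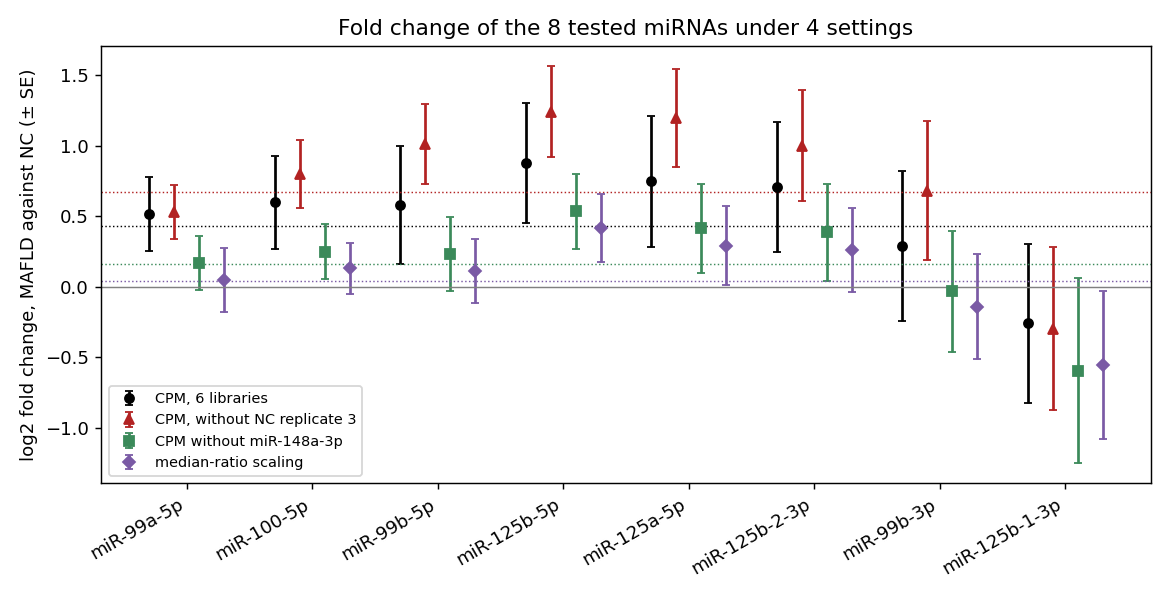
Log2 fold change of MAFLD against NC livers with its standard error for the 8 members tested, under 4 settings, with dotted lines in the same colours at the median of all miRNAs tested. Leaving out NC replicate 3 raises most members and the median together, and both other scalings bring most members towards 0.

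As reads of near-identical strands may be assigned to either name, the levels were also summed within a family. The miR-99/100 5p strands summed to 6009, 6332 and 6929 CPM in NC livers and to 9959, 8203 and 9594 CPM in MAFLD livers, and the groups did not overlap. When CPM was computed without miR-148a-3p, the same sums were 20991, 17272 and 13460 in NC livers and 18705, 18964 and 19834 in MAFLD livers. The MAFLD libraries then lay between NC replicates 1 and 2, and NC replicate 3 was the lowest instead of the highest of the NC libraries. The difference of the mean log2 sums was 0.52 in CPM, where the pooled SD between replicates was 0.13. It was 0.18 when miR-148a-3p was left out (pooled SD 0.23) and 0.057 by median-ratio scaling (pooled SD 0.30), so it exceeded the spread in CPM and was inside it under both other scalings.

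The miR-125 5p strands summed to 103, 117 and 248 CPM in NC livers and to 356, 206 and 241 CPM in MAFLD livers, and the groups overlapped. The mean log2 sums differed by 0.85 in CPM (pooled SD 0.56), by 0.50 when miR-148a-3p was left out (pooled SD 0.29) and by 0.38 by median-ratio scaling (pooled SD 0.25). Without miR-148a-3p the sums were 360, 320 and 482 in NC livers and 669, 476 and 498 in MAFLD livers. The mean of the miR-125 sum was higher in MAFLD livers by more than 1 pooled SD under each of the 3 scalings, though the groups overlapped in each and the difference was smaller outside CPM.

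The ratio of both sums does not depend on the scaling. The miR-99/100 5p sum was 58.3, 54.0 and 27.9 times the miR-125 5p sum in NC livers and 27.9, 39.8 and 39.8 times in MAFLD livers. NC replicate 3 and MAFLD replicate 1 had the lowest ratio, NC replicates 1 and 2 the highest, and the groups overlapped. This ratio was computed after the values were seen and was not tested.

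**Figure D3:**
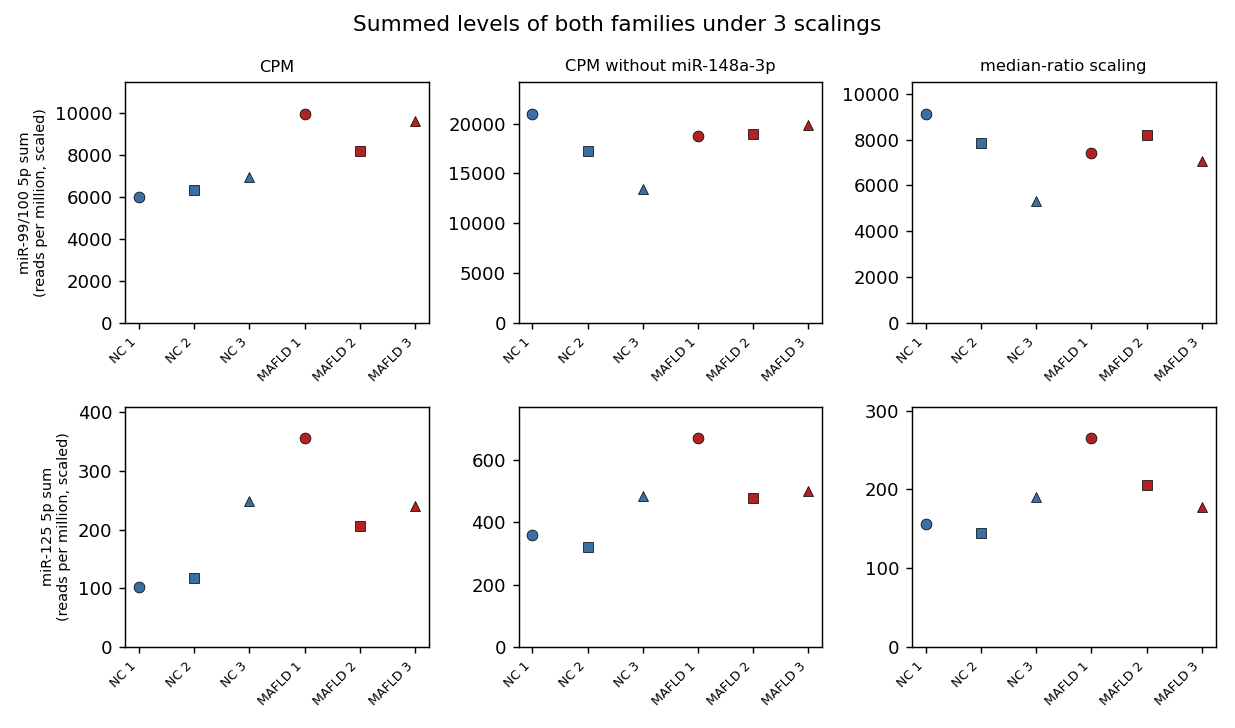
Summed level of the miR-99/100 5p strands (top) and of the miR-125 5p strands (bottom) in each library, in CPM, in CPM without miR-148a-3p and by median-ratio scaling, each axis starting at 0. The miR-99/100 groups are apart in CPM and overlap under the other scalings.

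Shares within a library, which also do not depend on the scaling, were compared between the groups with a two-sided exact permutation test over the 6 livers, where 3 against 3 cannot give a p below 0.1. MiR-99b-3p made up 5.59%, 8.21% and 6.65% of the reads of both miR-99b strands in NC livers and 6.00%, 4.16% and 7.24% in MAFLD livers (exact permutation test, p = 0.5, adjusted p = 0.75 over the 6 shares). The 5p strand was the main product in every library. MiR-125a-3p made up 0 of 68, 0 of 48 and 1 of 100 reads of both miR-125a strands in NC livers, where a count of 0 allows up to 4.41% and 6.25%. In MAFLD livers it made up 1.75%, 1.48% and 2.06%, within these limits although the groups did not overlap (exact permutation test, p = 0.1, adjusted p = 0.6), so a difference was not detectable at this depth.

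The 3p strands of miR-125b came mostly from the chromosome 16 gene. MiR-125b-2-3p made up 89.2%, 79.3% and 92.1% of both 3p strands in NC livers and 93.9%, 90.4% and 96.2% in MAFLD livers (exact permutation test, p = 0.2, adjusted p = 0.6). These rest on 29 to 125 reads per library, and the 95% Wilson interval of NC replicate 2, 61.6% to 90.2%, overlapped with those of all MAFLD libraries. The share of a 3p strand does not give the share of the 5p strand from the same gene.

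Within the families, miR-100-5p made up 13.2%, 12.3% and 17.8% of miR-99a-5p and miR-100-5p together in NC livers and 14.7%, 13.5% and 17.0% in MAFLD livers (exact permutation test, p = 0.7, adjusted p = 0.84). Replicate 3 of either group had the highest share. MiR-99b-5p made up 2.10%, 1.91% and 4.39% of the miR-99/100 5p strands in NC livers and 2.89%, 2.46% and 2.78% in MAFLD livers (exact permutation test, p = 1, adjusted p = 1). The MAFLD livers were close together, and NC replicate 3 had more than NC replicates 1 and 2, with Wilson intervals that were apart. MiR-125a-5p made up 25.9%, 26.1% and 29.8% of the miR-125 5p strands in NC livers and 23.6%, 27.7% and 25.7% in MAFLD livers (exact permutation test, p = 0.4, adjusted p = 0.75).

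**Figure D4:**
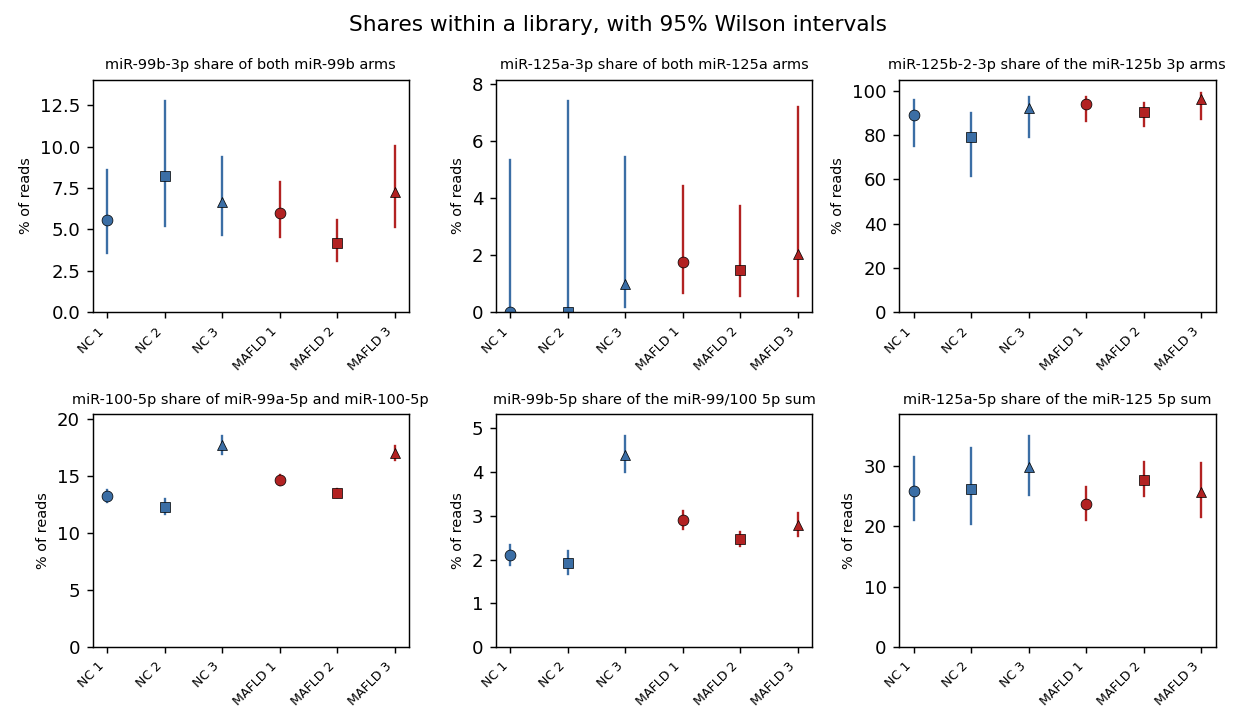
The 6 shares in percent of reads for each library, with 95% Wilson intervals as vertical lines, NC in blue and MAFLD in red. The groups overlap in 5 of the 6 shares, and in the miR-125a-3p share, where they are apart, the intervals of all libraries overlap.

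Of 11 seed relatives, sister strands and let-7 miRNAs, 6 had a mean of at least 1 CPM and were tested, and 0 of these passed an adjusted p under 0.05 in limma, edgeR or DESeq2. An unadjusted p under 0.05 was reached by 3 in limma, all higher in MAFLD livers, where 18.0% of all miRNAs reached it, by 3 in edgeR (17.4% of all) and by 2 in DESeq2 (16.6% of all). Without NC replicate 3, 3 of the 6 passed the adjusted p in limma, where 22.8% of all did: miR-351-5p (log2 fold change 1.70, adjusted p = 0.0129), let-7a-5p (1.12, adjusted p = 0.00609) and let-7c-5p (1.07, adjusted p = 0.00609). With another scaling as well, 0 of 6 did. MiR-351-5p, an X-linked miRNA with the miR-125 seed, had 8.63, 7.01 and 16.5 CPM in the NC group and 29.6, 23.0 and 30.6 CPM in the MAFLD group. Each MAFLD library was above each NC library. Limma gave a log2 fold change of 1.37 with a standard error of 0.48 (unadjusted p = 0.0114, adjusted p = 0.208), and the fold change was 1.09 when miR-148a-3p was left out of the CPM and 0.94 by median-ratio scaling. The other 2 were let-7a-5p, at 0.99 in log2 fold change (limma, adjusted p = 0.152), and let-7c-5p, at 0.84 (limma, adjusted p = 0.208). The first had 1579, 1933 and 2304 CPM in the NC group and 4661, 3430 and 3443 CPM in the MAFLD group. The second had 2156, 2453 and 3758 CPM against 5837, 4160 and 4672 CPM. For both, as for miR-351-5p, the groups did not overlap in CPM, where 19.4% of all miRNAs tested did not, 15.2% of all with MAFLD higher. By median-ratio scaling let-7a-5p was at 0.52 and let-7c-5p at 0.37, the latter no longer under an unadjusted p of 0.05 (limma, adjusted p = 0.304).

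The let-7 neighbours share a cluster with the members, but let-7a-5p and let-7c-5p are also made from genes elsewhere. Let-7e-5p has 1 gene, 94 bp from Mir99b. It had 93.7, 161 and 202 CPM in the NC group and 142, 142 and 178 CPM in the MAFLD group, with the groups interleaved. Limma put its log2 fold change at 0.079 with a standard error of 0.40 (adjusted p = 0.934), beside 0.58 for miR-99b-5p and 0.75 for miR-125a-5p of the same cluster. This fold change reversed to −0.27 when miR-148a-3p was left out and to −0.38 by median-ratio scaling. The ratio of miR-99b-5p to let-7e-5p was 1.34, 0.754 and 1.51 in NC livers and 2.03, 1.42 and 1.50 in MAFLD livers, and the groups overlapped. Let-7e-3p had a log2 fold change of −0.073 at 1 to 9 reads per library. Let-7c-2-3p, named for a gene on chromosome 15 outside the clusters, was at 0.67 in log2 fold change (limma, adjusted p = 0.438). Its reads were the same as those of let-7a-1-3p in every library, so they cannot be assigned to 1 of these names. The sister strands miR-99a-3p and miR-100-3p had 12 and 5 reads in all libraries together, and with miR-351-3p, let-7c-1-3p and let-7a-2-3p they were not tested.

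**Figure D5:**
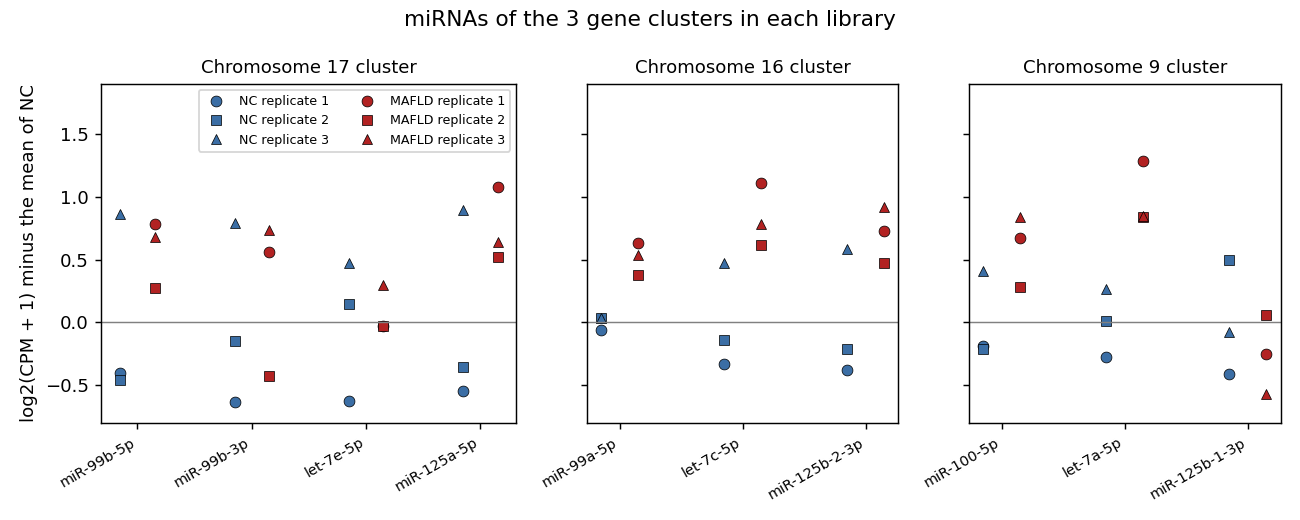
Members and let-7 neighbours grouped by gene cluster, as log2(CPM + 1) in each library minus the mean of the NC libraries. NC replicate 3 (blue triangle) lies above the other NC libraries for all miRNAs shown except miR-99a-5p, where it equals NC replicate 2, and miR-125b-1-3p, and the groups do not overlap for miR-99a-5p, let-7c-5p and let-7a-5p.

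Among the marker lists of cell types, all in CPM alone, the endothelial list held miR-126a-3p and miR-126a-5p. It summed to 4710 to 6587 CPM in NC livers and to 7659 to 10155 CPM in MAFLD livers, without overlap. This came from miR-126a-3p. MiR-126a-5p overlapped, with 289 CPM in NC replicate 3 and 280 CPM in MAFLD replicate 2. Of all miRNAs tested, 15.2% did not overlap in CPM with MAFLD higher. The mesenchymal list of 5 miRNAs summed to 12612 to 30033 CPM in NC livers and to 19775 to 26950 CPM in MAFLD livers, and the haematopoietic list of 5 to 135 to 247 CPM and 190 to 353 CPM, both with overlap. The muscle, erythroid and pancreas lists also overlapped, at 37.1 to 241 CPM, 427 to 1202 CPM and 0.784 to 6.73 CPM over all libraries. The hepatocyte list of 4 was at 102722 to 167007 CPM in NC livers and at 147868 to 176512 CPM in MAFLD livers, with overlap. Within it, miR-192-5p (58194 to 74390 CPM against 82161 to 97878 CPM) did not overlap. Nor did miR-122-3p (147 to 224 CPM against 271 to 400 CPM). MiR-122-5p and miR-194-5p overlapped. The part of any of these cell types in the levels of the members was not tested.

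Among the 231 miRNAs outside the 9 with a mean of at least 10 CPM, those whose log2 levels followed the miR-99/100 5p sum most closely over the 6 libraries were miR-17-5p (Pearson r 0.989), miR-16-5p (0.982), miR-19b-3p (0.979), miR-450a-5p (0.978) and miR-378d (0.972). For the miR-125 5p sum they were miR-29a-3p (0.994), miR-25-3p (0.993), miR-30e-5p (0.992), miR-27b-3p (0.992) and miR-22-3p (0.990). All these values share the 6 libraries and their scaling to the total. MiR-29a-3p, for example, had 682, 786 and 1658 CPM in the NC group and 2394, 1378 and 1857 CPM in the MAFLD group, so that NC replicate 3 was also among the MAFLD libraries there, as for miR-125b-5p.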

How the data were processed

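Small RNA libraries were prepared from liver RNA after a treatment that strips modifications hindering the library steps, followed by size selection. The table deposited by the authors gives the CPM of 1546 mature miRNAs in 3 NC and 3 MAFLD libraries, scaled to the total of listed miRNA reads. The submitters' processing notes name FastQC, cutadapt, Bowtie, edgeR and GRCm38. The roles and settings of these tools and the miRNA database version are not given in the sources used here. All CPM values (100%) were within 0.02 of a whole multiple of the smallest value of their library, which gave the reads, between 1336935 and 4685712 per library.

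The comparison of MAFLD with NC used limma 3.58.1 (R 4.3.3, eBayes with a trend, two-sided) on log2(CPM + 1). A mean of 1 CPM or more was required, which left 501 miRNAs, with Benjamini-Hochberg adjustment over all of them and a threshold of 0.05. Because of the added 1 CPM, fold changes of low miRNAs are understated. Shares were tested in scipy 1.17.1 with exact permutation tests. Alternatives were other pseudocounts, filters and scalings, limma without the trend, a block for the replicate number, leaving out each library, and edgeR 4.0.16 and DESeq2 1.42.0 on the recovered reads. The fits were tested on simulated data. The members and the lists of relatives and markers were chosen with earlier results of these data known. All members and listed relatives are named, and the miRNAs nearest in pattern are the 5 with the highest Pearson r for each family sum. Positions and sequences come from GENCODE M21 and RefSeq on GRCm38.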

Additional observations from a re-analysis of the deposited data

How the results depend on the processing

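Of the members, 0 passed the adjusted p under 0.05 in every alternative listed in the methods but 1. Leave-one-out fits gave 0 to 4 of 8, and the 4 came without NC replicate 3 (114 of 501 among all miRNAs tested). At an unadjusted p these fits gave from 0 to 6 of 8. It was 6 without NC replicate 3 (177 of 501) and 1 without MAFLD replicate 2 (89 of 501). The other alternatives gave 0, except 2 for CPM without miR-148a-3p and without NC replicate 3 (136 of 500). That setting was added after seeing the data, as was the median-ratio scaling without NC replicate 3. The 1 of 8 members whose groups do not overlap (97 of 501 among all miRNAs tested) became 2 of 9 with no filter (141 of 1467), which adds miR-125a-3p. It became 2 with CPM without miR-148a-3p (108 of 500) and 0 with edgeR's scaling (101 of 501). Leaving out 1 library gave 6 without NC replicate 3 (265 of 501), 4 without MAFLD replicate 2 (193 of 501) and otherwise 1 (108 to 130 of 501). Without NC replicate 3 it was also 4 in CPM without miR-148a-3p (224 of 500) and by median-ratio scaling (210 of 501). The cause was not tested.

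The 1 miRNA of all tested past the adjusted p became 11 with no filter, 2 with median-ratio scaling, 2 with CPM without miR-148a-3p, 0 without the trend (74 at an unadjusted p), 28 with DESeq2, from 0 to 114 when 1 library was left out, and 42 and 37 without NC replicate 3 in CPM without miR-148a-3p and by median-ratio scaling. The 90 of 501 at an unadjusted p became 59 of 238 with the filter at 10 CPM. It became from 40 to 177 when 1 library was left out, and 136 in CPM without miR-148a-3p and without NC replicate 3. Of the 6 relatives tested, 3 at an unadjusted p became from 1 to 4 when 1 library was left out and 1 with median-ratio scaling without NC replicate 3.

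The log2 difference of the miR-99/100 5p sums, 0.52, became 0.057 with median-ratio scaling, 0.18 with CPM without miR-148a-3p and 0.078 with TMM, and that of the miR-125 5p sums, 0.85, became 0.38, 0.50 and 0.41. MiR-99a-5p reversed to −0.0069 with DESeq2, and without NC replicate 3 to −0.040 in CPM without miR-148a-3p and to −0.22 with median-ratio scaling. MiR-99b-3p reversed to −0.14 with median-ratio scaling, −0.033 with CPM without miR-148a-3p, −0.13 with edgeR, −0.16 with DESeq2 and −0.0070 with median-ratio scaling without NC replicate 3, with a leave-one-out range of −0.030 to 0.68. Let-7e-5p reversed to −0.38 with median-ratio scaling, −0.27 with CPM without miR-148a-3p, −0.36 with edgeR and −0.40 with DESeq2, and without NC replicate 3 to −0.25 in CPM without miR-148a-3p and −0.42 by median-ratio scaling, with a leave-one-out range of −0.23 to 0.32. For let-7e-3p this range was −0.54 to 0.35. The other 6 members tested kept their sign in all alternatives, though miR-125b-1-3p had a leave-one-out range of −0.46 to −0.0095. Of the relatives tested, 3 passed the adjusted p without NC replicate 3 and 0 in the other alternatives. The difference in share of miR-100-5p, 0.622 points, had a leave-one-out range of −0.441 to 2.28 points, and that of miR-99b-5p, −0.0880 points, one of −0.532 to 0.709 points.

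With the replicate block, 0 members passed the adjusted or the unadjusted p, and 5 of all miRNAs passed the adjusted p. The deviations of same-numbered livers had correlations of 0.012, −0.020 and −0.046. With so few libraries per group, these values cannot decide whether same-numbered livers shared a batch or a processing step. A shared batch was not tested.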
